A study of Mus musculus with 16 samples.

Results

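Acyl-CoA thioesterase genes were followed in the livers of middle-aged mice that had lived on 4 diets and then received a single gavage of a PPARα agonist or of its solvent. The 8 genes were Acot1, Acot2, Acot3, Acot4, Acot5, Acot8, Acot12 and Acot13. A gene was read from a transcript cluster, the array's unit of measurement, that the platform annotation gives to that gene alone, and each had 1 such cluster except Acot8. Both clusters of Acot8 are shared with its neighbour Snx21 in the annotation, so no value is given for it. The other 7 genes, of 18820 on the array with a cluster of their own, exceeded the detection filter on all 16 arrays and were among 14275 genes tested.

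Acyl-CoA thioesterases split a fatty acyl-CoA into the free fatty acid and coenzyme A. They thereby act against the acyl-CoA synthetases and set the balance between activated and free fatty acids, and free coenzyme A, in each compartment of the cell. Acot1 to Acot6 are similar type I enzymes whose genes lie side by side on mouse chromosome 12. Acot1 works on long-chain acyl-CoA in the cytosol and Acot2 on long-chain acyl-CoA in mitochondria. Acot3, Acot4 and Acot5 are peroxisomal, with Acot4 acting on succinyl-CoA and other dicarboxylic acyl-CoAs. Acot8, Acot12 and Acot13 belong to the structurally unrelated type II enzymes. Acot8 is peroxisomal, Acot12 is a cytosolic acetyl-CoA thioesterase of the liver, and Acot13, also called Them2, is a long-chain thioesterase that binds the phosphatidylcholine transfer protein and associates with mitochondria. PPARα is the nuclear receptor that switches on fatty acid oxidation genes in the fasted liver, and several thioesterase genes are known targets of its agonists.

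The animals were male C57BL/6J mice aged 12 months, each contributing 1 whole liver to 1 array. From the age of 9 weeks they received an intermittent diet (INT), a calorie-restricted diet cut by 30% (CR), medium-fat food with fat supplying 25% of energy (MF), or the AIN-93W control diet (C). INT alternated weekly between the medium-fat diet ad libitum and 40% calorie restriction, and its mice were killed in a medium-fat week. Every mouse, those given the solvent included, was fasted for 4 h, gavaged with the PPARα agonist WY14,643 at 160 mg/kg (Wy) or with carboxymethyl cellulose alone (mock), and fasted for a further 6 h until it was killed. By the paper's account CR food came as a daily portion, and the time since each mouse last ate was not given. Within each diet a Wy and a mock mouse of high body weight formed 1 pair and a Wy and a mock mouse of low body weight another, giving 8 pairs and 2 mice in each of 8 diet by treatment groups. Body weight class is a label within a diet and no weights were given with the arrays. The paper reports that body weight varied widely among C and MF mice and very little among CR and INT mice. No mice lacking PPARα were analysed here, so dependence on the receptor was not tested.

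Values are log2 intensities, where a difference of 1 is a doubling of signal, and array medians lay between 5.53 and 5.59 over all transcript clusters. The highest and lowest correlation between arrays was 0.994 and 0.982 over the same clusters. The 8 hepatocyte markers were all measured, with a summed level of 15.89 to 16.03 in Wy livers and 15.98 to 16.15 in mock livers. Of the 8, 2 were called lower with Wy, against 16% of all tested genes. Adipoq of adipocytes, Cd3d of T cells, Cftr of bile duct cells, Ctrb1 of exocrine pancreas and Kap of kidney were under the filter on all arrays, while 2 to 4 other markers of each of these lists were tested. The high INT Wy and high INT mock arrays carried another array code than the remaining 14. In whole liver, fewer cells of a type and less RNA per cell cannot be told apart.

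The first comparison asks how the thioesterase genes responded to Wy. Transcripts of 6 of the 7 genes rose in Wy livers, Acot5 and Acot1 by about 10- and 8-fold, Acot2, Acot3 and Acot4 by 4.38-, 3.39- and 2.44-fold, and Acot12 by 1.23-fold. Acot13 was not called. Genes were compared with limma with the matched pair as a block, and called at a Benjamini-Hochberg adjusted p under 0.05 over all tested genes. By this rule 12.3% of all tested genes were called higher with Wy, against 6 of the 7 here. The median Wy minus mock difference was 1.76 over the 7 thioesterase genes and -0.01 over all tested genes.

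**Figure D1:**
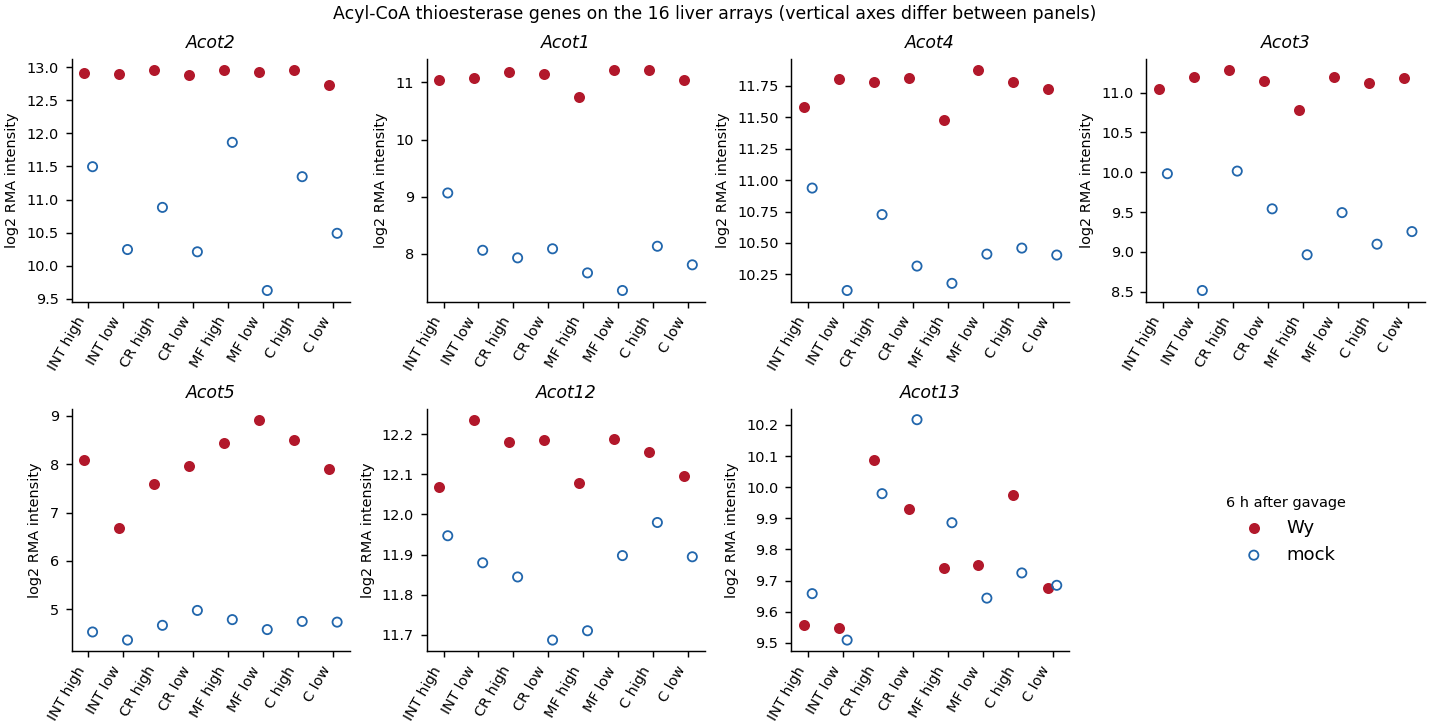
Log2 intensity (vertical axis, a separate scale per gene) of the 7 measured thioesterase genes on each of 16 arrays, by diet and body weight class (horizontal axis), with Wy as filled and mock as open circles. In all genes but Acot13 the lowest Wy liver lies above the highest mock liver, and the mock values of Acot2 range from 9.63 to 11.86 where the Wy values range from 12.73 to 12.96.

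Acot1, the cytosolic enzyme, ranged from 10.74 to 11.22 in Wy livers with a median of 11.12, against 7.35 to 9.06 with a median of 7.99 in mock livers. The 2 treatments did not overlap, and Wy exceeded mock in 8 of 8 pairs. Its log2 change was 3.08 ± 0.15 (SE, n = 8 pairs, limma adjusted p = 4.71e-07), an 8.43-fold rise. Acot1 had the 4th highest difference of all tested genes. The INT pair of high body weight differed by 1.99, while the other 7 pairs differed by 3.02 to 3.86. In that pair the Wy liver, at 11.05, was within the range of the other Wy livers, and the mock liver, at 9.06, was the highest of the mock livers. Without that pair, which is also the pair with the other array code, the change was 3.23 ± 0.09.

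Acot2, the mitochondrial enzyme, read 12.73 to 12.96 in Wy livers with a median of 12.92, against 9.63 to 11.86 with a median of 10.69 in mock livers. Again no mock liver reached the lowest Wy liver. The log2 change was 2.13 ± 0.21 (SE, n = 8 pairs, limma adjusted p = 2.92e-05). Between pairs it ranged from 1.09 to 3.30, and both ends were MF pairs, the first of high and the second of low body weight.

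Among the peroxisomal enzymes, Acot5 ranged from 6.67 to 8.92 in Wy livers with a median of 8.03, against 4.36 to 4.98 with a median of 4.70 in mock livers. Its mock values lay just above the filter of log2 4.32, and the arrays give no call of detection, so whether they stood above background, and whether the fold is only a lower bound, was not tested. The log2 change of 3.34 ± 0.18 (SE, n = 8 pairs, limma adjusted p = 7.67e-07) was the third highest of all tested genes. Acot3 ranged from 10.79 to 11.28 in Wy livers with a median of 11.16, and from 8.52 to 10.01 in mock livers with a median of 9.37, a log2 change of 1.76 ± 0.14 (SE, n = 8 pairs, limma adjusted p = 8.85e-06). Acot4, which was higher in Wy livers as well, ranged from 11.48 to 11.88 with a median of 11.78 in Wy livers and from 10.12 to 10.94 with a median of 10.41 in mock livers, a log2 change of 1.28 ± 0.10 (SE, n = 8 pairs, limma adjusted p = 4.86e-06). For all 3 peroxisomal enzymes the treatments were fully separated and the direction was the same in 8 of 8 pairs. The smallest response of Acot3 and of Acot4, 1.06 and 0.64, was in the INT pair of high body weight, as it was for Acot1.

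Acot12, the cytosolic acetyl-CoA thioesterase, moved far less. It ranged from 12.07 to 12.24 in Wy livers with a median of 12.17, and from 11.69 to 11.98 in mock livers with a median of 11.89. The change was 0.29 ± 0.05 on the log2 scale (SE, n = 8 pairs, limma adjusted p = 0.0011), with a difference above 0 in 8 of 8 pairs, and the ranges did not overlap. Acot13 ranged from 9.55 to 10.09 in Wy livers with a median of 9.75, and from 9.51 to 10.22 in mock livers with a median of 9.70, so that the treatments overlapped throughout. Wy exceeded mock in 4 of 8 pairs, and the log2 change had a 95% confidence interval of -0.13 to 0.13 (limma adjusted p = 0.968). Among the 7, the type II genes thus gave the small and the uncalled difference, and the type I genes the 5 differences above 1. Across all tested genes, 2.78% had every Wy liver above every mock liver, as 6 of the 7 thioesterase genes did, and 8.82% were higher with Wy in 8 of 8 pairs.

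**Figure D2:**
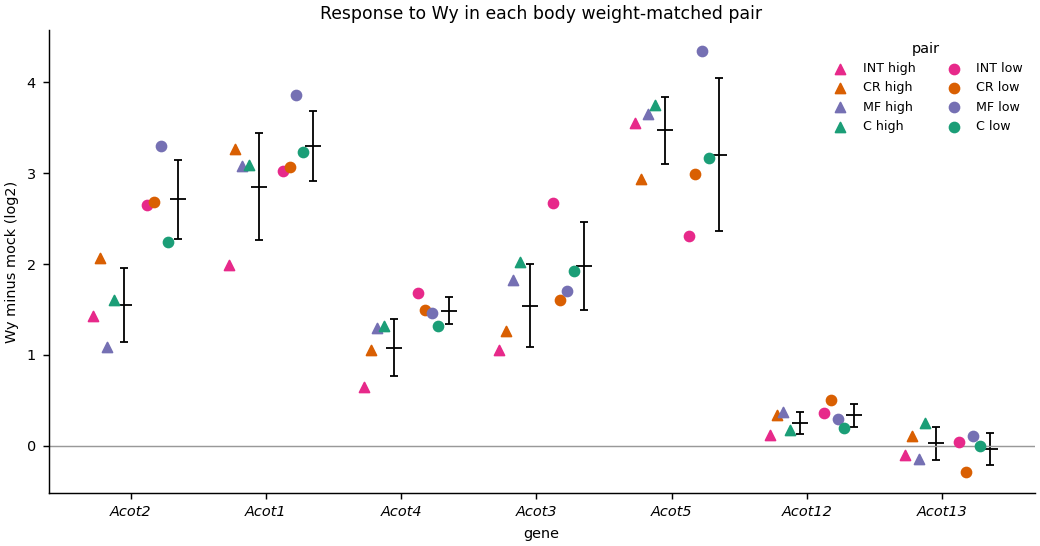
Wy minus mock log2 difference (vertical axis) in each of 8 pairs for the 7 genes (horizontal axis), with triangles for high and circles for low body weight, colours for the diets, and black lines and bars for the mean and SD of the 4 pairs of a class. The Acot2 differences are 1.09 to 2.07 at high and 2.24 to 3.30 at low body weight, and those of Acot13 lie on both sides of 0.

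In RefSeq order along chromosome 12, the 5 called type I genes are neighbours in the order Acot2, Acot1, Acot4, Acot3, Acot5, followed by Acot6, whose mouse product is also peroxisomal. Acot6 rose by 0.79 ± 0.11 on the log2 scale (1.73-fold, SE, n = 8 pairs, limma adjusted p = 0.000401), and 7 of its 8 pairs were higher with Wy. The genes flanking this run had smaller differences. Riox1, next to Acot2, was 1.25-fold higher (adjusted p = 0.000498), and Papln and Numb beyond it were 1.23- and 1.11-fold higher (adjusted p = 0.0185 and 0.0135). On the far side of Acot6, Dnal1, Pnma1 and Mideas were not called (log2 differences of -0.20, 0.15 and 0.14). Since the Acot1 to Acot6 transcripts are similar, part of the signal of 1 cluster may come from a neighbour's transcript. Probe sequences were not analysed here, and this was not tested.

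**Figure D3:**
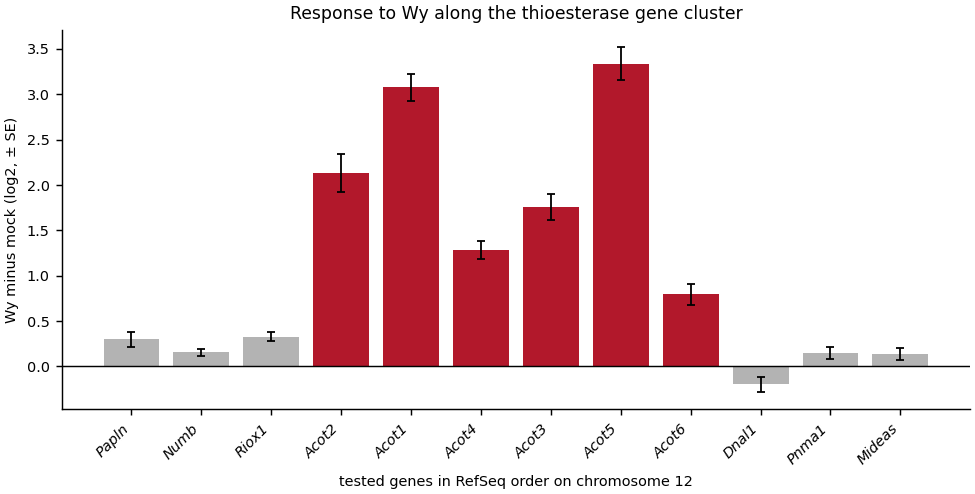
Wy minus mock log2 difference with its standard error (vertical axis) for 12 tested genes in RefSeq order on chromosome 12 (horizontal axis), with Acot genes in red and flanking genes in grey. The 6 Acot bars run from 0.79 for Acot6 to 3.34 for Acot5, while the 6 flanking bars lie between -0.20 and 0.33.

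PPARα binds as a heterodimer with RXR to a direct repeat of AGGTCA with 1 base between. Promoter windows of 250 bases before and 50 bases after the start, from RefSeq on GRCm38.p6, were at hand for 7 of the 8 genes, not for Acot13. The windows of Acot5 and Acot1, the genes with the strongest responses, and of Acot4, the only window with a degenerate form of the repeat, are given 5′ to 3′, with AGGTCA on either strand (TGACCT on the minus strand) in capitals.
Acot5, chr12:84069074-84069373, plus strand: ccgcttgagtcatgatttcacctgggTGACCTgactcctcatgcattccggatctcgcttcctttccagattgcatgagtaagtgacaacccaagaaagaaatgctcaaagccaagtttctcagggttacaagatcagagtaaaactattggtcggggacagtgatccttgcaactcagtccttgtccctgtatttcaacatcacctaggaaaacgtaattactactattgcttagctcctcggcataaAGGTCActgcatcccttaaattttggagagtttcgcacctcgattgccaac
Acot1, chr12:84009252-84009551, plus strand: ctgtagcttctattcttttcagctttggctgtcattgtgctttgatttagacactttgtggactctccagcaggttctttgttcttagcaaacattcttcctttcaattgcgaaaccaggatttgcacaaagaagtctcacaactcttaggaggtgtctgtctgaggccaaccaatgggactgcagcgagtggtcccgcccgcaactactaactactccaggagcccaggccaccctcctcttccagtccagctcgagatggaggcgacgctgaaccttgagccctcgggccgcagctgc
Acot4, chr12:84038129-84038428, plus strand: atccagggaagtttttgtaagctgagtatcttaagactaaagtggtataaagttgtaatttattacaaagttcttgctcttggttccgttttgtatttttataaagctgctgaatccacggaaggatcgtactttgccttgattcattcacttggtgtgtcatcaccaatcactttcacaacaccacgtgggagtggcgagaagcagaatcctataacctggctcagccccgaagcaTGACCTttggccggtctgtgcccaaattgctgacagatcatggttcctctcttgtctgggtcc

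None of these windows, and none of the other thioesterase windows, held the exact repeat on either strand, which stood in 0.0396% of all 32851 windows. None held it with the fourth base of both AGGTCA units left free either (0.381% of all windows). A looser form, with the first base of the repeat left free as well, was tried after the sequences had been seen, and its matches contain those of the stricter forms. It occurred on the minus strand of the Acot4 window, as TGACCTTTGGCCG from base -13, and in 0.798% of all windows. The single AGGTCA, also tried afterwards, was present in the windows of Acot3, Acot4, Acot5 and Acot12. It stood in 16.3% of all windows and in a window of 18.1% of all genes that had one. Acot1 and Acot2, with log2 changes of 3.08 and 2.13, had none in these 300 bases. These matches describe the letters of short windows and not the binding of a factor.

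The spread between livers was unequal in the 2 treatments, and most of all for Acot2. The SD of Acot2 over 8 livers was 0.0742 in Wy and 0.760 in mock, a ratio of mock to Wy of 10.2. Only 1 of the 14275 tested genes had a higher ratio, and the median ratio over all was 1.03. Acot1 and Acot3 had SDs of 0.157 and 0.151 in Wy livers, against 0.498 and 0.509 in mock livers. Acot1, Acot2 and Acot3 were the 3 of 7 thioesterase genes with a mock spread at least 3 times the Wy spread, which 0.813% of all tested genes had. For Acot1 this rests in part on the high INT mock liver, at 9.06 against 7.35 to 8.13 in the other mock livers. The Acot1 ratio was not computed without that liver. Among 116 genes called at least 2-fold higher with Wy, 12 reached that ratio and the median was 1.36.

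Acot5 went the other way, with an SD of 0.679 in Wy and 0.185 in mock, a ratio of 0.272 that only 0.21% of tested genes matched or undercut. The Wy livers of low body weight alone spanned this range, from 6.67 in INT to 8.92 in MF. Acot13 had similar SDs of 0.196 and 0.227 in Wy and mock livers.

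**Figure D4:**
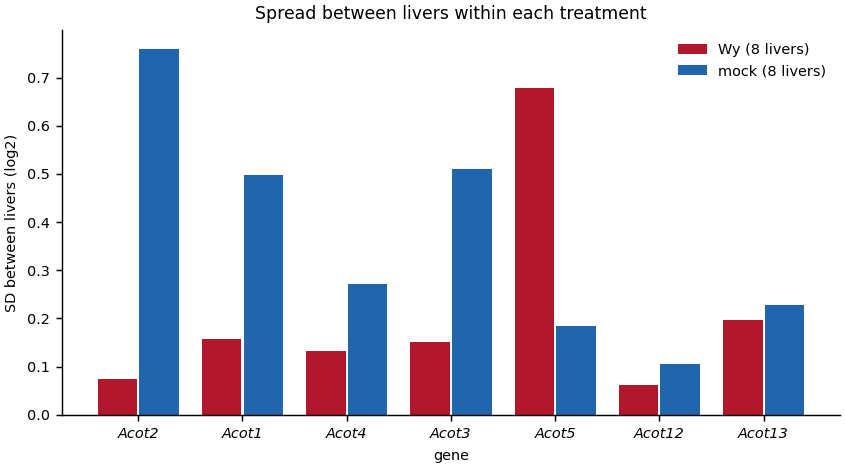
SD of the log2 intensity between 8 livers (vertical axis) for each gene (horizontal axis), with Wy in red and mock in blue. The Acot2 bars are 0.0742 in Wy and 0.760 in mock livers, and Acot5 is the only gene whose Wy bar is the taller.

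The spreads were also set against those of genes of similar level. In Wy livers only 30 tested genes had a higher mean than Acot2 at 12.90, where the highest value on any array was 13.7. The 122 other genes within 0.5 log2 of that mean had a median SD of 0.0648 in Wy livers, close to that of Acot2, and of 0.0752 in mock livers. Around the mock mean of Acot2, at 10.77, the median mock SD of 739 other genes was 0.133, and 1.62% of them reached its 0.760. The mock spread of Acot2 was therefore wide for its level and its Wy spread was usual for its level. The part of the array's upper range in the small Wy spread was not tested.

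The wide mock values of Acot2 lay apart by body weight class. Mock livers of high body weight read 11.50 in INT, 10.88 in CR, 11.86 in MF and 11.35 in C, and mock livers of low body weight read 10.24 in INT, 10.21 in CR, 9.63 in MF and 10.49 in C. All 4 livers of high body weight thus exceeded all 4 of low body weight, a separation in this direction found for 1.09% of all tested genes and for none of the other 6 genes. Of these livers, the high INT mock liver carried the other array code. The mean was 11.40 ± 0.41 at high and 10.14 ± 0.37 at low body weight (SD, n = 4 each). In a fit of the mock arrays alone the difference was 1.25 ± 0.25 (SE, 2.39-fold), with an unadjusted limma p of 0.00231 that did not pass the adjustment over all genes (adjusted p = 0.657). No gene was called for body weight in that fit.

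In Wy livers the same classes read 12.95 ± 0.02 at high and 12.86 ± 0.09 at low body weight (SD, n = 4 each), and the difference was 0.09 ± 0.07 (SE, limma adjusted p = 0.849). Because the Wy values were nearly constant, the pair differences restate the mock values and add no further observation. Acot2 rose by 1.55 ± 0.41 in the 4 pairs of high and by 2.72 ± 0.44 in the 4 pairs of low body weight (SD), and within each of the 4 diets the pair of high body weight responded less, as for 6.19% of all tested genes. As an interaction this was -1.17 ± 0.24 (SE, unadjusted p = 0.000653, 12th of all tested genes, limma adjusted p = 0.775). No tested gene was called for this interaction (0% of 14275). Unadjusted, 2 of the 7 genes and 673 of all tested genes had a p under 0.05. The second of these was Acot4, with -0.41 ± 0.15 (limma adjusted p = 0.999). Its pairs of high and low body weight lay furthest apart in INT, at 0.64 and 1.68, where the first carried the other array code. They read 1.05 and 1.49 in CR, 1.30 and 1.46 in MF, and 1.32 and 1.32 in C.

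Body weight over both treatments gave no call for any of the 7 genes. Across all diets no tested gene was called (0%), and Acot2 differed by 0.67 ± 0.20 between high and low body weight (SE, limma adjusted p = 0.209). In C and MF, 7.39% of all genes were called in either direction and none of the 7 thioesterase genes was, with Acot2 at 0.84 ± 0.30 (SE, unadjusted p = 0.0164, limma adjusted p = 0.113). The outcome turned on single livers. Without the high MF Wy liver the Acot2 difference was 1.14 (adjusted p = 0.0454), and without the low MF Wy liver it was 1.17 (adjusted p = 0.0341). Without the low MF mock liver it was 0.51 (adjusted p = 0.408), and without the high MF mock liver 0.54 (adjusted p = 0.37). Among Wy livers alone it was 0.13 ± 0.11 (limma adjusted p = 0.812) and among mock livers alone 1.55 ± 0.32 (adjusted p = 0.12), in fits chosen after the data were seen. In the same contrast 1 of 6 macrophage, 2 of 5 endothelial and 2 of 6 stellate markers were called higher (4.67% of all tested genes were). Called lower were 1 of 8 hepatocyte markers and the single erythroid marker (388 of all 14275 tested genes were). The summed macrophage level was 11.69 to 12.26 at high and 11.58 to 11.77 at low body weight, with overlap. The endothelial level, at 12.25 to 12.48 and 12.16 to 12.24, did not overlap. Nor did the stellate level, at 12.28 to 12.44 and 12.07 to 12.21, or the erythroid level, at 9.21 to 9.55 and 9.74 to 10.04. The part of these cells in the Acot2 values was not tested. In CR and INT no gene was called (0%), and among the 7 Acot3 had the smallest p, with a difference of 0.48 ± 0.20 (SE, limma adjusted p = 0.968). The difference between these 2 body weight effects was called for 0.855% of all genes and for none of the 7, with Acot3 at -0.77 ± 0.29 (limma adjusted p = 0.243). In INT both livers of high body weight, and no others, carried the other array code. Class and code therefore cannot be told apart in the INT part of these contrasts. High minus low for Acot3 was 1.47 with mock and -0.15 with Wy in INT, and 0.47 and 0.14 in CR.

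The diets were compared next, in a limma fit that also held terms for treatment and for body weight class. Acot13, the gene not called with Wy, was the one of the 7 genes called between diets. Its mean was lowest in INT livers and highest in CR livers. The INT livers of high and low body weight read 9.56 and 9.55 with Wy, and 9.66 and 9.51 with mock. The CR livers of high and low body weight read 10.09 and 9.93 with Wy, and 9.98 and 10.22 with mock. No INT liver reached the lowest CR liver, and 4.85% of all tested genes had all CR livers above all INT livers.

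Acot13 was lower in INT than in CR by 0.48 ± 0.08 on the log2 scale (0.715-fold, SE, n = 4 each, limma adjusted p = 0.00248), in a comparison that called 4.28% of all tested genes lower. Without the 2 arrays of the other code, both INT, the difference was -0.48 (limma adjusted p = 0.0441). Neither treatment alone passed, at -0.45 (limma adjusted p = 0.149) among the Wy livers, where 0.995% of all genes were called, and -0.51 (adjusted p = 0.169) among the mock livers, where 0.462% were. It was higher in CR than in MF by 0.30 ± 0.08 (1.23-fold, n = 4 each, limma adjusted p = 0.0281), where 5.79% of all genes were called higher. MF livers read 9.64 to 9.89, all below the CR livers, as for 5.08% of all tested genes. Within 1 treatment it was not called, at 0.26 among Wy livers (limma adjusted p = 0.315, 1.38% of all genes called) and 0.33 among mock livers (adjusted p = 0.346, 0.0701% of all genes called). The call was also lost on leaving out any 1 of 5 livers (high CR Wy, high MF Wy, low MF Wy, low CR mock or low MF mock), with values between 0.22 and 0.34 over all single omissions.

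CR exceeded C by 0.29 ± 0.08 (1.22-fold, n = 4 each, limma adjusted p = 0.0368), where 4.54% of all genes were called higher. Among Wy livers alone CR minus C was 0.18 (adjusted p = 0.566, 0.932% of all genes called), and among mock livers alone 0.39 (adjusted p = 0.302, 0.063% of all genes called). The CR and C livers overlapped, since the low CR Wy liver read 9.93 and the high C Wy liver 9.97. The adjusted p was 0.0517 without the arrays of the other code and 0.053 with the pair as a random block. It also missed 0.05 on leaving out any 1 of 5 livers, which were high CR Wy, low CR mock, low C Wy, high C mock and low C mock (differences of 0.21 to 0.36 over all single omissions). INT lay below C by 0.20 and below MF by 0.19, neither of them called (limma adjusted p = 0.464 and 0.417). Diet means were 9.57 ± 0.06 in INT, 10.05 ± 0.13 in CR, 9.76 ± 0.10 in MF and 9.77 ± 0.14 in C (SD, n = 4 each), and MF and C differed by less than the spread within either.

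Markers of other cells also moved between CR and the remaining diets. Their counts are to be read against those of all 14275 tested genes. Of these, 648 were called higher and 853 lower in CR minus C. INT minus CR called 795 higher and 611 lower, and CR minus MF called 826 higher and 981 lower. In CR minus C, 1 of 3 tested B and T cell markers, the single tested erythroid marker Alas2, 1 of 3 exocrine pancreas markers and 1 of 6 stellate markers were called lower. Of the 8 hepatocyte markers, 1 was called higher in CR than in C. In INT minus CR, 2 of 8 hepatocyte markers were called lower, and 1 of 3 B and T cell markers, Alas2 and 1 of 3 exocrine pancreas markers higher. In CR minus MF, 2 of 8 hepatocyte markers were called higher, and 1 of 3 B and T cell, 1 of 3 exocrine pancreas, 1 of 6 stellate and 1 of 5 endothelial markers and Alas2 lower. The part of these cells in the Acot13 differences was not tested.

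**Figure D5:**
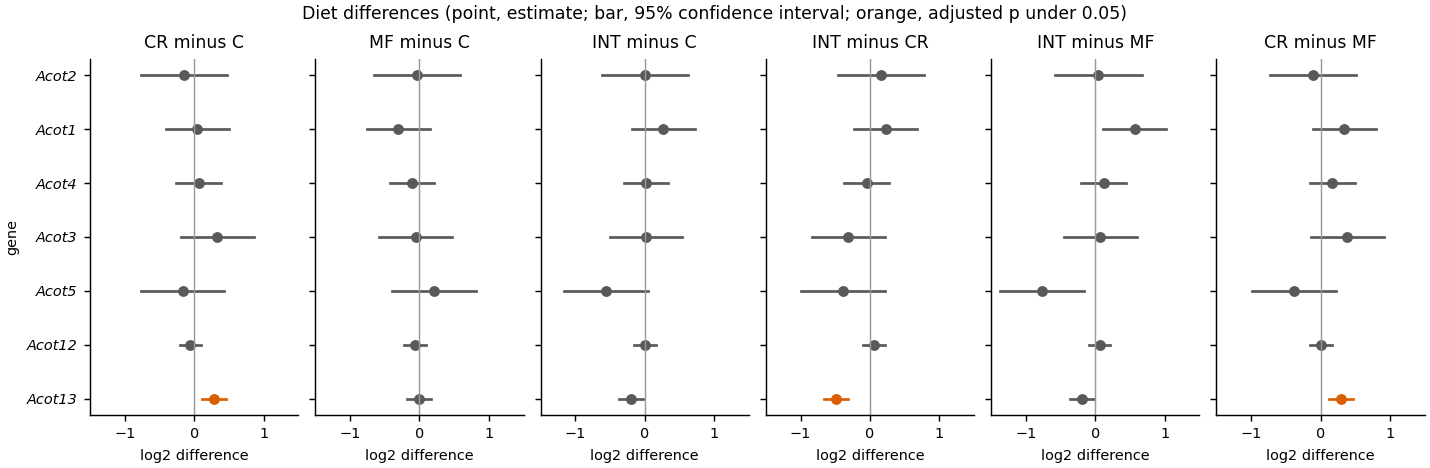
Log2 difference between diets (horizontal axis, 1 panel per comparison) for the 7 genes (vertical axis), with points for the limma estimate, bars for its 95% confidence interval and orange for an adjusted p under 0.05. Acot13 is orange at 0.29 in CR minus C, -0.48 in INT minus CR and 0.30 in CR minus MF, and no other gene is orange.

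The other 6 of the 7 genes were not called in any diet comparison. MF minus C called no gene (0%), with none of the 7 and 628 of all genes at an unadjusted p under 0.05. INT minus C called 0.00701% of all genes and none of the 7, with Acot13 alone at an unadjusted p under 0.05. INT minus MF called none (0%), while 3 of the 7 and 1629 of all genes had an unadjusted p under 0.05. Besides Acot13 these were Acot1, higher in INT by 0.57 ± 0.21 (limma adjusted p = 0.387), and Acot5, lower in INT by 0.77 ± 0.28 (limma adjusted p = 0.385). Acot1 was higher in the INT liver in 3 of 4 matched comparisons with MF, with differences of 0.31 and -0.13 between Wy livers of high and low body weight, and of 1.40 and 0.70 between mock livers. Without the high INT mock liver its difference was 0.28. Acot5 was lower in the INT liver of all 4 matched comparisons with MF, by 2.25 between Wy livers of low body weight and by 0.22 to 0.35 in the other 3. The response to Wy itself did not pass the limma F test over the 4 diets in any of the 7 genes, and that test called no gene (0%), with 669 of all genes at an unadjusted p under 0.05. The smallest unadjusted p of the 7 genes in that F test were 0.0853 for Acot5 and 0.113 for Acot1. The single contrast of CR with C called 0.00701% of all genes and none of the 7. With 1 Wy and 1 mock liver per diet and class, the interval of such a difference was wide, for Acot13 from -0.63 to 0.21 between CR and C.

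Whether the thioesterase genes moved together from mouse to mouse was described after the mean of each treatment had been subtracted, over 16 arrays that share diets and pairs. Acot3 and Acot4 followed each other most closely (r = 0.857), then Acot1 and Acot4 (r = 0.655). The high INT mock liver, with the other array code, was the highest mock liver for both Acot1 and Acot4 (9.06 and 10.94). The r of Acot1 with Acot4 was not computed without it. Acot2 was nearly unrelated to Acot3 (r = 0.049). The r of Acot5 with each of Acot1, Acot2, Acot3 and Acot4 was between -0.08 and 0.06. Acot5 varied mainly in Wy livers (SD 0.679, against 0.185 in mock), and those genes varied more in mock livers. This unequal spread holds the r down, so it cannot show whether Acot5 followed them within a treatment. Among Acot1 to Acot4, r after removal of treatment means ran from 0.049 to 0.857 between pairs of genes, and single livers can shift it. With the treatment difference included, all pairs of the 5 type I genes had r of 0.847 or more. Those high values contain the shared Wy difference.

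The genes with the most similar pattern over the 16 arrays, treatment difference included, were Abhd1 for Acot1 (r = 0.987), Enc1 and the carnitine transporter Slc22a5 for Acot2 (r = 0.979 and 0.976), Ddhd2 for Acot4 (r = 0.990), Tmed5 for Acot3 (r = 0.981) and Slc35c1 for Acot5 (r = 0.971). Acot12 was closest to Acaa1b, a peroxisomal thiolase (r = 0.947), and Acot13 to Rasgef1b (r = 0.912). With the treatment means removed, Enc1 was still closest to Acot2 (r = 0.886), while Acot1 was closest to Angptl4, an inhibitor of lipoprotein lipase (r = 0.778), and Acot13 to Nt5e (r = 0.928). Each is the highest among all tested genes outside the 7, except that Slc22a5 is the second highest for Acot2, and all are given as a description.

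The remaining acyl-CoA genes give the surroundings of these changes. Of 12 other thioesterase genes 10 were tested, and with Wy 2 were called higher and 4 lower, with a median of -0.12. Of all tested genes 12.3% were called higher with Wy and 16% lower. Those higher were Acot6 and Acot7, a cytosolic enzyme best known from brain (log2 change 0.32 ± 0.06). Those lower were Baat, which joins bile acids to amino acids (-0.47 ± 0.06), Them6 (-0.45 ± 0.10), Acot11 (-0.30 ± 0.10) and the lysosomal Ppt2 (-0.28 ± 0.05). A rise with Wy was thus not general to thioesterases. Between diets, Them4, a mitochondrial thioesterase, followed the direction of Acot13, lower in INT than in CR by 0.43 ± 0.08 (limma adjusted p = 0.00666) and higher in CR than in C by 0.51 ± 0.08 (adjusted p = 0.00219). Acot7 was lower in INT than in CR by 0.38 ± 0.08 (adjusted p = 0.0104). Acot11 and Them6 were lower in CR than in C, by 1.01 ± 0.14 and 0.54 ± 0.16, where 5.98% of all genes were called lower. With body weight in C and MF, 3 of the 10 were called higher at high body weight, against 4.67% of all tested genes. They were Ppt1 by 0.43 ± 0.08 (limma adjusted p = 0.0124), Acot9 by 0.66 ± 0.14 (adjusted p = 0.0198) and Them6 by 0.60 ± 0.14 (adjusted p = 0.0277).

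Genes that make acyl-CoA split in direction with Wy, to be read against the same 12.3% and 16%. Of 19 tested synthetases, fatty acid transport and acyl-CoA binding proteins 8 rose and 2 fell, with log2 changes (± SE) of 1.66 ± 0.23 for the fatty acid transport protein Slc27a1, 0.37 ± 0.05 for Acsf2, 0.35 ± 0.06 for the long-chain synthetase Acsl5 and -0.29 ± 0.05 for Acsm1, a medium-chain synthetase. On the same scale, 5 of 6 tested carnitine genes rose, among them Slc22a5 by 1.80 ± 0.14, the carnitine acetyltransferase Crat by 1.16 ± 0.09, the mitochondrial carrier Slc25a20 by 0.77 ± 0.07 and Cpt2 by 0.66 ± 0.06. Of 13 genes of coenzyme A synthesis, transport and breakdown 5 rose and 1 fell. The rises included Slc25a42, the mitochondrial coenzyme A carrier (1.06 ± 0.05), Ppcs and Pank1, enzymes of its synthesis (0.90 ± 0.08 and 0.30 ± 0.05), and Vnn1, a pantetheinase (1.10 ± 0.24). Of 20 tested beta-oxidation genes 13 rose and none fell, with a median of 0.43, led by Ehhadh (1.46 ± 0.10), Acaa1b (1.20 ± 0.08), Acaa1a (1.03 ± 0.07) and Hadhb (0.59 ± 0.05). Ppara itself was not called (0.09 ± 0.07, SE, limma adjusted p = 0.394).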

How the data were processed

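Liver RNA of 16 mice was hybridised to Affymetrix Mouse Gene 1.1 ST arrays. The deposited values are log2 intensities that the authors made by RMA (robust multi-array average). RMA subtracts background, forces all arrays onto 1 distribution and combines probes per transcript cluster, so only relative differences between arrays remain. Its version and the genome build were not given in the sources used here.

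Of 35556 transcript clusters, 21218 matched 1 gene, 1881 several and 12457 none in the platform annotation. Per gene the single-gene cluster with the highest mean was used. The 14275 genes above an intensity of 20 (log2 4.32) on 5 or more arrays were kept, a threshold the study applied to other arrays with other probe sets, and tested with limma 3.58.1 in R 4.3.3, with Benjamini-Hochberg adjustment per comparison. The Wy effect and its interactions had the pair as a block, diets had treatment and body weight class as terms, and body weight classes had diet and treatment. The pairing comes from the labels, which state that mice were matched by body weight within a diet, and each pair was taken from diet and class. The mouse numbers are consecutive in every pair but the INT pair of high body weight. Deviations of the pairs correlated at 0.531 in C, 0.564 in MF, 0.0839 in INT and -0.169 in CR. With 1 pair per class in a diet, these values cannot separate the matching of single mice from a shared difference between body weight classes. The fit was tested on simulated data. The number of arrays limits the precision, and p-values measure the spread between single mice.

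The genes and lists were chosen with earlier results of these data known. Named were all 8 thioesterase genes, Ppara, the 4 genes with the smallest p of each list, called genes of other thioesterases, the most correlated genes, and the chromosomal neighbours, which were added after the values were seen. Alternatives were array centring, no filter, a trended robust fit, the mean of all clusters, arrays of 1 code, the block, each treatment alone and each array left out.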

Additional observations from a re-analysis of the deposited data

Results flagged for a closer look

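In 21 groups of 8 values (Wy livers, mock livers and pair differences of the 7 genes), the highest or lowest value was tested for its gap to the nearest other, and 4 stood apart. Chance flags about 1 in 20 such groups. Acot1 in the high MF Wy liver read 10.74, below the next Wy liver at 11.03. Acot1 in the high INT mock liver read 9.06, above the next mock liver at 8.13, and the same mouse gave the Acot1 pair difference of 1.99 in the INT pair of high body weight, where the next was 3.02. Acot2 in the low C Wy liver read 12.73, below the next Wy liver at 12.89.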

How the results depend on the processing

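The count of 6 thioesterase genes called with Wy was 6 under all 22 alternatives, with no replicate block and without each array included. No called value changed sign under any alternative. Acot13 carried all calls between diets. The count for CR minus C was 1 and became 0 with the arrays of 1 code only, with the replicate block as a random pair, and among Wy or mock livers alone, and ranged from 0 to 1 without single livers. For INT minus CR it was 1 and became 0 among Wy or mock livers alone. For CR minus MF it was 1, became 0 among Wy or mock livers alone, and ranged from 0 to 1 without single livers. Fewer arrays enter these fits, except that with the random pair, where the cause was not tested. For high minus low body weight in C and MF the count was 0 and ranged from 0 to 1 (Acot2). The pair block changed no other call, and for body weight within 2 diets it was run with diets as additive terms, an alternative chosen after the data were seen, as were the fits of each treatment alone for these contrasts (count 0 in all).

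Centring each array on its median turned the share of higher among all called genes to 53.9% with Wy (43.5% before), 57.1% in CR minus C (43.2%), 41.9% in INT minus CR (56.5%) and 56.2% in CR minus MF (45.7%), with no change in the thioesterase calls. Body weight in CR and INT, and its difference from C and MF, were not run with the arrays of 1 code. Depth plays no part on arrays. Acot5 in mock livers, near the filter, and Acot2 in Wy livers, near the upper end, are the values for which the range of signal was not tested.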
